A study of Mus musculus with 6 samples.

Results

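The respiratory chain assembly factors are 44 nuclear genes whose products build complexes I to V of the inner mitochondrial membrane and, for the most part, are absent from the finished enzymes. They were listed by name, with earlier results of these data known. The list held 14 factors for complex I, 4 for complex II, 6 for complex III, 17 for complex IV and 3 for complex V. All 44 were found by symbol among the 32285 genes of the deposited count table. RNA-seq of whole kidney came from 6 female mice aged 100 weeks whose mitochondrial DNA was mutated in TrnE, which encodes the tRNA for glutamate. Mutation load, in percent, is given for each mouse and is the share of mutant copies. Controls were 3 kidneys with loads of 10%, 5% and 15% (low-load 1 to 3), so the controls carried the mutation too, at a low level. The high-load group was 3 kidneys with loads of 75%, 75% and 80% (high-load 1 to 3). The sample titles call the high-load group the treatment, with no agent named. The labels used here state no strain or breeding scheme and do not say how the mice are related, so p-values measure only the spread between these samples. Libraries held 17449270 to 18865997 counts, and levels are CPM, the count over the TMM-scaled library total on a common scale. All 44 genes passed the filter on low counts, with low-load means from 1.28 CPM (Cox20) to 130.0 CPM (Coa5). Kidney markers were high: the proximal tubule gene Slc34a1 averaged 4070 CPM at low load and the thick ascending limb gene Umod 4160 CPM.

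The respiratory chain moves electrons from nutrients to oxygen through complexes I to IV and uses the proton gradient that results to make ATP in complex V. All of these except complex II combine subunits from the mitochondrial genome, made on mitochondrial ribosomes with mitochondrial tRNAs, with subunits imported from the cytosol. Assembly factors hold the partly built modules, insert flavin, iron-sulfur clusters, heme and copper, and release the finished enzyme. Proximal tubule cells of the kidney are rich in mitochondria, and inherited faults in several assembly factors cause complex deficiencies in people.

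Transcripts of the assembly factors were mostly slightly lower in high-load kidneys than in low-load kidneys, and none passed the test. None of the 44 passed an adjusted p of 0.05 over the 15955 genes tested with edgeR's quasi-likelihood test, where 0.0188% of all genes did. At an adjusted p of 0.1 there were 0 as well, where 0.608% of genes were lower. Of the 44 fold changes, 36 lay below 1 and 8 above, where 49.1% of all genes lay below 1. When counts were scaled to library totals alone 25 lay below 1, where the median log2 fold change of all genes was 0.13. That scaling left 5 lower members and 1 higher one, Ndufaf5, at an unadjusted p under 0.05, against 6.31% and 18.2% of all genes, and 4 members higher without overlap, against 24.2%. The median log2 fold change of high over low load was -0.16, against 0.01 over all genes tested. At an unadjusted p under 0.05 there were 12 lower members and 0 higher ones, which is 27.3% of the members against 10.2% of all genes for lower genes and 14.0% for higher genes. Limma-voom also called 0 members at an adjusted p of 0.05, where 0.0% of all genes passed, with 11 lower at an unadjusted p under 0.05 (10.7% of all genes). DESeq2 called 1 member lower at an adjusted p of 0.05, Nubpl, where 3.77% of all genes were lower, and 5 at 0.1, where 6.53% were. In 16 members, 36.4%, all 3 high-load values lay below all 3 low-load values, against 15.8% of all genes. No member had all 3 high-load values above the low-load ones, where 17.1% of genes did. The 12 lower members were 14.6% to 30.8% below low load, with adjusted p from 0.12 to 0.205. On the other side of 1, the value farthest above low load was 15.3% higher, in Lyrm7, whose groups overlapped.

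**Figure D1:**
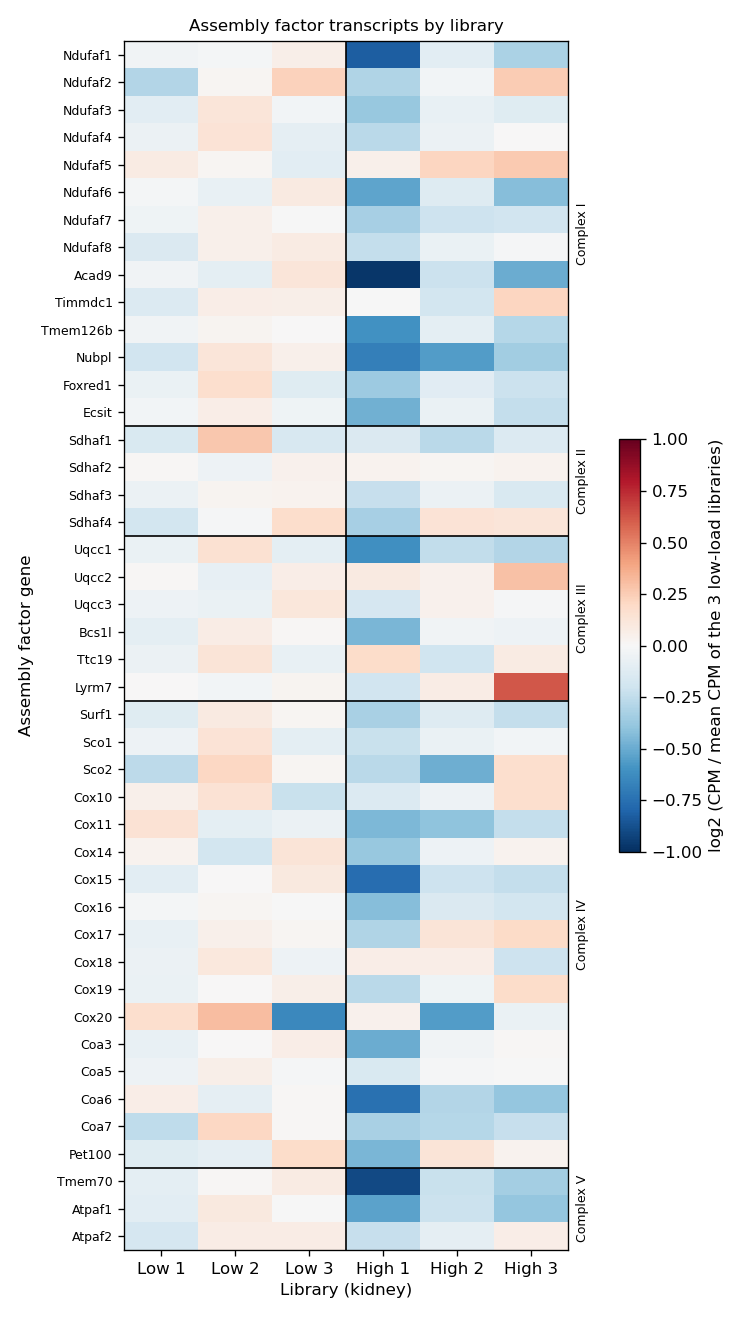
Level of each of the 44 assembly factors (rows, by complex) in each kidney (columns), as log2 of its CPM over the mean CPM of the 3 low-load libraries. Blue is lower and red is higher. High-load 1 is the bluest column and has the lowest of the 6 values for 34 of the 44 genes.

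The lower values were not spread evenly over the high-load kidneys. High-load 1 held the lowest of the 6 values for 34 members, high-load 2 for 4 and high-load 3 for 1. The median log2 deviation of the 44 members from the low-load mean was -0.31 in high-load 1, -0.08 in high-load 2 and -0.04 in high-load 3, against -0.06, 0.05 and 0.03 in the low-load kidneys. Without high-load 1 the median log2 fold change of the members was -0.07. In that comparison 8 members, all of them among the 12, had an unadjusted p under 0.05, where 8.09% of all genes were lower at that p. They were Ndufaf7, Acad9, Nubpl, Uqcc1, Cox15, Coa6, Tmem70 and Atpaf1. The count at an unadjusted p under 0.05 also depended on the low-load kidneys: with low-load 1, 2 or 3 left out it was 7, 4 and 5, where 7.1%, 6.25% and 6.88% of all genes were lower. Leaving out high-load 2 gave 14 (13.2% of all genes), and leaving out the third gave 7 (6.15%). Without high-load 2, where 4.96% of all genes passed an adjusted p of 0.05, 0 members did, and 8 members passed 0.1, where 6.9% of genes were lower. Members higher without overlap numbered 1, 0 and 2 in those 3 comparisons that left out a low-load kidney, against 21.9%, 21.5% and 20.5% of all genes. With high-load 1, 2 or 3 left out the counts were 3, 1 and 0, against 20.7%, 25.4% and 21.4%. With the replicate number as a block 12 members were lower at an unadjusted p under 0.05, where 10.1% of all genes were. Ndufaf7, Nubpl and Coa6 were among the lower members whichever of the 6 kidneys was left out.

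High-load 1 also stood apart in the makeup of its RNA. All 16 proximal tubule markers lay below a fold change of 1, 0 of them past the adjusted test, and their summed level was 21400 to 25000 CPM at low load and 6190, 17200 and 12300 CPM in high-load 1 to 3. The 7 macrophage markers summed to 280 to 383 CPM at low load and to 835, 509 and 597 CPM at high load. For 6 of the 7 the high-load values lay above all low-load values, where 17.1% of all genes did. The other, Csf1r, averaged 117 CPM at low load and 114 CPM at high load. Of the 7 markers, 0 passed the adjusted test, and none was at 0 CPM in any kidney. Lymphocyte markers summed to 36.1 to 58.1 CPM at low load and 61.0 to 190 CPM at high load. High-load 1 had the lowest proximal tubule sum, the highest macrophage sum and the lowest summed level of assembly factors (1160 CPM, against 1410 to 1560 CPM in the other kidneys). It was also lowest in the summed markers of podocytes (197 CPM, against 432 to 529 in the others). The same held for the distal convoluted tubule (963 against 2030 to 3040) and endothelium (203 against 231 to 371). High-load 1 was neither lowest nor highest in the summed collecting duct markers (573 CPM, against 353 to 920 in the others). It also lay within the range of the others for the thick ascending limb (4420 against 4000 to 7440) and fibroblasts (483 against 176 to 663). The part of cell makeup in the members' values was not tested. In RNA from whole kidney, fewer cells of a type and less RNA per cell cannot be told apart.

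**Figure D2:**
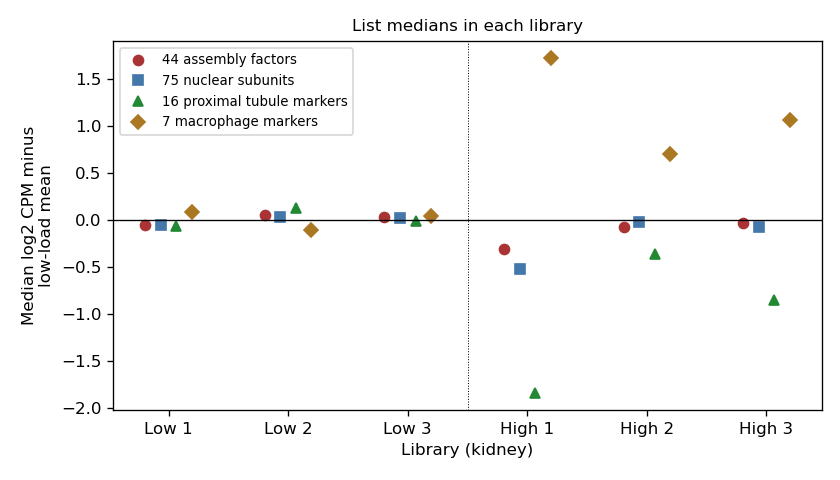
For 4 gene lists, the median difference in log2 CPM from the low-load mean (vertical axis), for each kidney (horizontal axis). In high-load 1 the 44 assembly factors were at -0.31, the 75 nuclear subunits at -0.52, the 16 proximal tubule markers at -1.85 and the 7 macrophage markers at 1.73.

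Of the 14 factors of complex I, 12 had a fold change below 1, 7 were lower without overlap and 5 had an unadjusted p under 0.05. The median log2 fold change was -0.23, or -0.15 without high-load 1. Nubpl, which delivers iron-sulfur clusters to complex I, had the smallest p of all 44 members. It stood at 16.3, 20.2 and 19.3 CPM in low-load 1 to 3 and at 11.6, 12.6 and 14.6 CPM in high-load 1 to 3. The groups did not overlap, and each high-load kidney was below the lowest low-load kidney. The gene spans chr12:52097737-52312744 on the plus strand of mm10. This gave a log2 fold change of -0.52 (SE 0.14), an unadjusted p of 0.00812 and an edgeR adjusted p of 0.12. DESeq2 gave Nubpl an adjusted p of 0.0361, so the call at 0.05 depended on the tool.

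Among the membrane arm builders, the MCIA complex of Ndufaf1, Ecsit, Acad9, Tmem126b and Timmdc1, 4 of 5 members were lower without overlap. The share over all genes tested was 15.8%. Acad9, a flavoprotein related to the acyl-CoA dehydrogenases, had the largest difference of all members. Its levels were 69.4, 66.4 and 77.0 CPM at low load and 36.1, 61.1 and 50.2 CPM at high load. The lowest value, in high-load 1, was far from the other high-load kidneys, and the log2 fold change was -0.53 (SE 0.19, adjusted p 0.163), or -0.35 without that kidney. Tmem126b, a membrane protein of the same complex, was at 47.6, 49.8 and 48.8 CPM against 32.0, 45.5 and 39.9 CPM (log2 fold change -0.32, SE 0.13, adjusted p 0.205), and without high-load 1 it was at -0.19. Its 3 low-load kidneys lay close together and the high-load kidneys were spread more widely. Ndufaf1 was at 30.3, 30.6 and 32.4 CPM against 17.6, 28.9 and 25.0 CPM (log2 fold change -0.39, SE 0.18, adjusted p 0.239). For Ecsit, which also acts in innate immune signalling, the values were 62.8, 67.2 and 62.3 CPM against 45.9, 61.1 and 54.3 CPM (log2 fold change -0.25, SE 0.12, adjusted p 0.233). Without high-load 1 the log2 fold changes of Ndufaf1 and Ecsit were -0.20 and -0.15. In both genes high-load 2 came close to the lowest low-load kidney. Exons of Acad9 and Ecsit overlap the predicted genes Gm43079 and Gm16845. Timmdc1 was the exception in this complex, at 25.2 ± 1.92 CPM at low load and 25.5 ± 3.58 CPM at high load (SD, n = 3 each).

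The start sites of Ndufaf1 and Ecsit are shown as examples that hold the core CCGGAAG of ETS factors such as GABP, a family long tied to genes of respiration. The promoter of Timmdc1, the steady member of this complex, holds the core as well and is not shown. Each line runs 5′ to 3′ along the gene from 80 bases before the RefSeq start to 20 after it, with the core in capitals.
Ndufaf1: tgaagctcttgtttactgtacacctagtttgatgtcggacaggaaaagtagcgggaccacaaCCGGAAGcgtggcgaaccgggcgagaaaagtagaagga
Ecsit: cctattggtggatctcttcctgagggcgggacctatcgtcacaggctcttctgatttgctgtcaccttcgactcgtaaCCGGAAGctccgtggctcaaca
The Ndufaf1 stretch is chr2:119662815-119662914 and the Ecsit stretch chr9:22085408-22085507, both on the minus strand of GRCm38.p6. The core begins 18 bases before the start of Ndufaf1 and 2 before that of Ecsit.

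Factors of the matrix arm differed among themselves. Ndufaf7, a protein arginine methyltransferase, was at 43.5, 46.3 and 44.6 CPM at low load and 35.5, 38.9 and 39.2 CPM at high load. All 3 high-load kidneys were low and close to each other, so this gene had the smallest standard error among the 12 lower members (log2 fold change -0.24, SE 0.08, adjusted p 0.145). Ndufaf6, an early factor, was at 14.5, 13.9 and 15.6 CPM against 10.2, 13.4 and 10.9 CPM (log2 fold change -0.35, SE 0.14, adjusted p 0.199). High-load 2 was only just below the low-load range. Ndufaf5, which hydroxylates an arginine of NDUFS7, was one of the 8 members above 1, at 13.4 ± 0.871 and 15.2 ± 1.17 CPM (SD, n = 3 each) with overlapping groups. Its partner Ndufaf8 was at 17.7 ± 1.45 and 16.6 ± 1.34 CPM. The early pair Ndufaf3 and Ndufaf4 had log2 fold changes of -0.18 (SE 0.12) and -0.10 (SE 0.11). The late factor Ndufaf2, a relative of the subunit NDUFA12, was at -0.01 (SE 0.20) and the flavoprotein Foxred1 at -0.23 (SE 0.11). In each of these 4 the groups overlapped. Without high-load 1, Ndufaf3, Ndufaf4 and Ndufaf8 were at -0.09, -0.02 and -0.03.

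Ndufaf7 lies head to head with Cebpz, and the start sites of this pair are 70 bases apart. The sequence between them is shown because any promoter element in it lies before both genes. Cebpz had a log2 fold change of -0.06 (SE 0.08), and its difference from Ndufaf7 was not tested. It is chr17:78937067-78937135, 69 bases on the plus strand, with its 7 CpG pairs in capitals.
Between Cebpz and Ndufaf7: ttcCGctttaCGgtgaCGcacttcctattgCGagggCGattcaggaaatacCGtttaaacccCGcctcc

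None of the 4 factors of complex II had an unadjusted p under 0.05, where 10.2% of all genes were lower and 14.0% higher. The median log2 fold change of the 4 factors was -0.08, or -0.04 without high-load 1. Complex II is wholly encoded in the nucleus. Sdhaf2, which attaches flavin to the subunit SDHA, was the steadiest member in the high-load group: 34.2, 32.8 and 35.0 CPM at low load and 34.8, 34.4 and 34.8 CPM at high load. Its groups overlapped fully, with a log2 fold change of 0.03 (SE 0.07). Sdhaf4, which binds the flavin-loaded SDHA, was at 12.9 ± 1.62 and 12.9 ± 2.22 CPM (SD, n = 3 each). Of the LYR-motif proteins that help load iron-sulfur clusters into SDHB, Sdhaf1 was at 10.9 ± 1.91 and 9.58 ± 0.497 CPM. The other, Sdhaf3, was at 7.65, 8.14 and 8.17 CPM against 6.81, 7.65 and 7.18 CPM. High-load 2 and low-load 1 were level to 3 digits, so the lack of overlap in Sdhaf3 rests on the next decimals (log2 fold change -0.15, SE 0.14).

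Complex III split by gene, with 3 of 6 factors on each side of 1 and a median log2 fold change of -0.01. Uqcc1, which with Uqcc2 stabilises newly made cytochrome b, was lower without overlap, at 78.6, 91.6 and 77.0 CPM against 53.8, 69.4 and 67.1 CPM. The log2 fold change was -0.38 (SE 0.13, adjusted p 0.153), or -0.27 without high-load 1. Uqcc2 pointed the other way, at 32.3, 30.2 and 33.5 CPM against 34.1, 32.9 and 39.2 CPM. Only the second high-load kidney overlapped the low-load range here, and the log2 fold change was 0.15 (SE 0.10, adjusted p 0.39). Uqcc3, the third early factor, was at 22.2 ± 1.56 and 21.6 ± 1.57 CPM (SD, n = 3 each). Around the Rieske iron-sulfur protein, the ATPase Bcs1l that inserts it had a log2 fold change of -0.17 (SE 0.14), or -0.04 without high-load 1. Ttc19, which clears its cleaved fragments, was at 0.03 (SE 0.12). Its chaperone Lyrm7 was at 4.60, 4.50 and 4.69 CPM against 4.02, 4.83 and 7.07 CPM, so its log2 fold change of 0.21 (SE 0.25) rested on high-load 3 and was -0.06 without it.

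**Figure D3:**
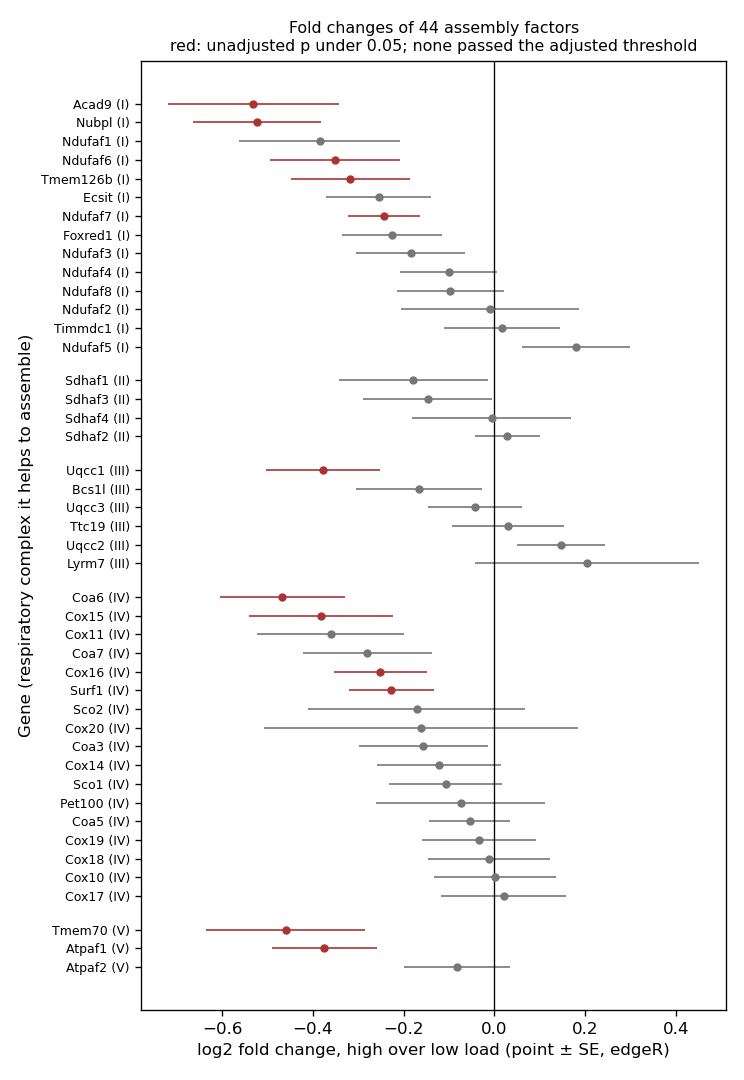
Log2 fold change of high over low load (horizontal axis) with its standard error for each of the 44 genes, grouped by complex. Red points have an unadjusted p under 0.05. All 12 red points lie to the left of 0, between -0.23 and -0.53.

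For complex IV, cytochrome c oxidase, 15 of 17 factors had a fold change below 1, where 49.1% of all genes did. Lower without overlap were 5 (29.4%, against 15.8% of all genes). Lower at an unadjusted p under 0.05 were 4 (23.5%, against 10.2% of all genes). The median log2 fold change of the 17 factors was -0.16, or -0.05 without high-load 1. Coa6, which helps to build the copper site of the subunit COX2, had the second-smallest p of the 44 members. It was at 25.8, 23.2 and 24.9 CPM at low load and 14.7, 20.1 and 18.8 CPM at high load. Every high-load kidney was below every low-load kidney, with a log2 fold change of -0.47 (SE 0.14, adjusted p 0.13). DESeq2 gave it an adjusted p of 0.057. Exons of Coa6 overlap those of Tarbp1 on the opposite strand, which had a log2 fold change of -0.20 (SE 0.12).

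The other copper factors did not follow Coa6 as a group. Cox17, which hands copper to the pathway, was at 47.6, 52.1 and 50.9 CPM against 40.7, 54.9 and 57.3 CPM. High-load 1 was the lowest of the 6 kidneys and the other high-load kidneys were the highest, for a log2 fold change of 0.02 (SE 0.14). Sco1 and Sco2, which pass copper to COX2, had log2 fold changes of -0.11 (SE 0.13) and -0.17 (SE 0.24), and Cox19 was at -0.03 (SE 0.12). Without high-load 1 Sco1 was at -0.05 and Cox19 at 0.08. Cox11, which serves the copper site of COX1, was at 8.27, 6.99 and 7.19 CPM against 5.48, 5.65 and 6.35 CPM. Its groups did not overlap (log2 fold change -0.36, SE 0.16, adjusted p 0.226), and its exons overlap those of Tom1l1. In 2 of the 6 copper factors, Coa6 and Cox11, the groups did not overlap, where 15.8% of all genes were lower without overlap.

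Heme A is made by Cox10 and then Cox15, and Surf1 is needed for its insertion into COX1. Cox15 was at 79.4, 86.0 and 91.4 CPM against 50.4, 74.3 and 72.4 CPM (log2 fold change -0.38, SE 0.16, adjusted p 0.203), or -0.22 without high-load 1. Surf1, a gene mutated in Leigh syndrome, was at 48.5, 56.3 and 53.6 CPM against 42.1, 48.4 and 44.8 CPM (log2 fold change -0.23, SE 0.09, adjusted p 0.202). The highest high-load kidney was nearly level with the lowest low-load kidney. Cox10, the first enzyme of the path, was at 22.6 ± 2.89 and 22.6 ± 2.52 CPM (SD, n = 3 each). Exons of Cox15 overlap those of Cutc and Entpd7, and exons of Surf1 those of Surf2. These neighbours had log2 fold changes of -0.11, 0.04 and -0.14, with standard errors of 0.15, 0.18 and 0.13. Counts of such overlapping genes are uncertain, as the sources do not say if reads were assigned by strand.

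Among the other complex IV factors, 1 of 8 was lower without overlap, where 15.8% of all genes were. That factor was Cox16, which acts in the building of COX2. It was at 26.3, 26.9 and 26.6 CPM against 19.8, 24.0 and 23.4 CPM (log2 fold change -0.25, SE 0.10, adjusted p 0.197), or -0.16 without high-load 1. The low-load kidneys lay close together and all high-load kidneys below them. Cox14 and Coa3, which couple the synthesis of COX1 to assembly, had log2 fold changes of -0.12 and -0.16 (SE 0.14 each), Coa7 of -0.28 (SE 0.14), Pet100 of -0.07 (SE 0.19) and Coa5 of -0.05 (SE 0.09). Groups overlapped in each of these 5. Without high-load 1 the log2 fold change was -0.005 for Cox14, -0.010 for Coa3, -0.005 for Coa5 and 0.09 for Pet100, so these values rested on that kidney. Cox18 and Cox20, which serve COX2, were at -0.01 (SE 0.14) and -0.16 (SE 0.35). Cox20 had the fewest counts of the 44 members, at 1.28 ± 0.406 and 1.14 ± 0.239 CPM (SD, n = 3 each), and the largest standard error.

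Cox16 has 2 starts in the RefSeq table, and both hold the ETS core. At the inner start it reads CCGGAAG, beginning 11 bases before. At the outer start, whose stretch is shown in the same way as for Ndufaf1, it lies on the other strand and reads CTTCCGG. Cox11 lies head to head with Stxbp4, with start sites 89 bases apart. The sequence between the starts of Cox11 and Stxbp4 is shown because this was the only head-to-head neighbour of a member that was lower at an unadjusted p under 0.05. The capitals mark the core in the first and the 12 CpG pairs in the second.
Cox16: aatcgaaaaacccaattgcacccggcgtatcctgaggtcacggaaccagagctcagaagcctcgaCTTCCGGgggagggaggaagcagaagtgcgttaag
Between Stxbp4 and Cox11: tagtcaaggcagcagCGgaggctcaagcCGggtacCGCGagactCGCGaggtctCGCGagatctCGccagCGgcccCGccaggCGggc
The Cox16 stretch is chr12:81485118-81485217 on the minus strand, with the core beginning 15 bases before the outer start. The other is chr11:90638085-90638172, 88 bases on the plus strand, both in GRCm38.p6.

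In complex V, the ATP synthase, all 3 factors had a fold change below 1 and 2 were lower without overlap. Of all genes tested, 49.1% lay below 1 and 15.8% were lower without overlap. Tmem70, which helps to form the ring of c subunits, was at 71.0, 76.5 and 80.4 CPM at low load and 40.7, 65.1 and 60.0 CPM at high load. High-load 1 was again far below the others, and the log2 fold change was -0.46 (SE 0.18, adjusted p 0.18), or -0.28 without it. Atpaf1, a chaperone of the β subunit, was at 23.2, 26.7 and 24.8 CPM against 17.2, 21.4 and 19.0 CPM (log2 fold change -0.38, SE 0.12, adjusted p 0.139). Its counterpart for the α subunit, Atpaf2, was at 31.5 ± 3.03 and 29.7 ± 3.11 CPM (SD, n = 3 each) with overlapping groups, for a log2 fold change of -0.08, or -0.008 without high-load 1. The difference between Atpaf1 and Atpaf2 was not tested.

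**Figure D4:**
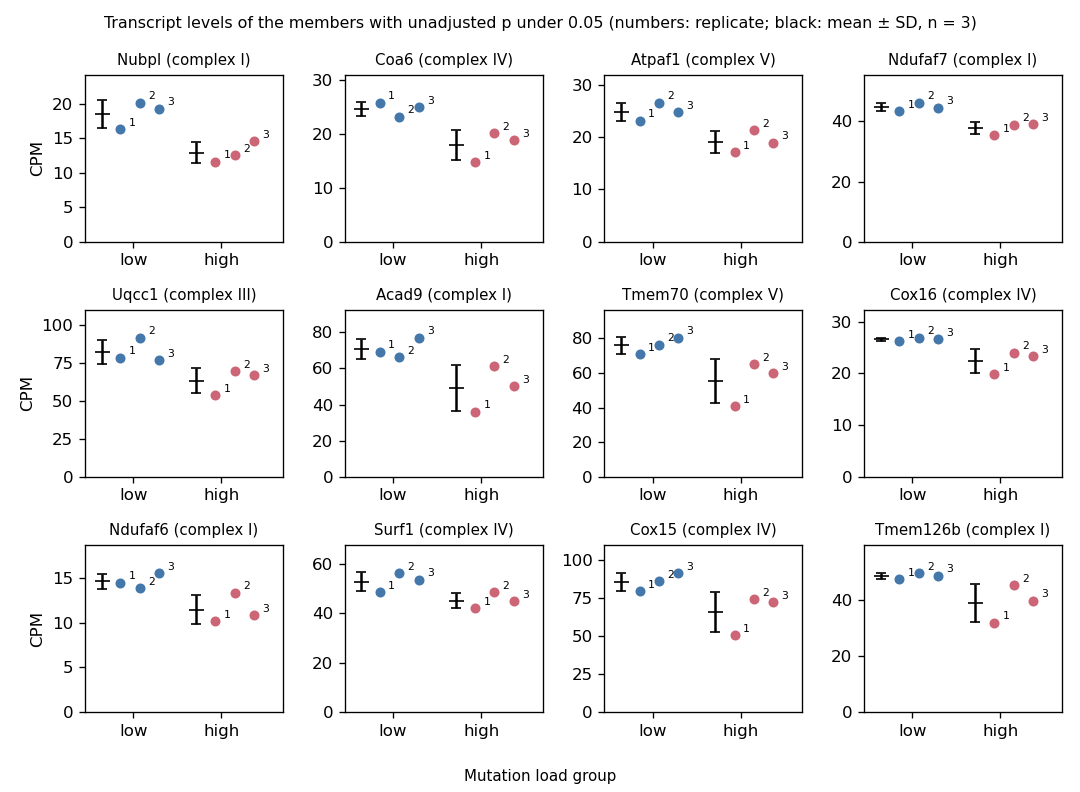
CPM (vertical axes, from 0) of the 12 members with an unadjusted p under 0.05 in low-load (blue) and high-load (red) kidneys, with the replicate number beside each point and the mean ± SD in black. In all 12 the lowest point is high-load 1 and no high-load point reaches the low-load range.

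Levels can be compared between genes only per length, as CPM per kilobase of the main coding transcript. On that scale, at low load, Cox17 was the most abundant factor at 113 ± 5.28, followed by Cox14 (71.8 ± 7.96), Coa3 (66.3 ± 3.19) and Uqcc2 (64.0 ± 3.30; SD, n = 3 each). The last 3 do not differ beyond their spread. At the other end were Lyrm7 at 1.34 ± 0.0276, Sdhaf3 at 1.85 ± 0.0672 and Cox20 at 2.72 ± 0.863. The 4 most abundant factors all overlapped between groups. The 16 members without overlap ranged from 1.85 (Sdhaf3) to 46.4 (Tmem70) on this scale.

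Beside the factors, the 75 nuclear subunits of the 5 complexes that were measured had a median log2 fold change of -0.19, with 73 below 1, 0 past the adjusted test, 7 lower at an unadjusted p under 0.05 and 20 lower without overlap. As shares the last 2 counts are 9.33% and 26.7% of the subunits, against 10.2% and 15.8% of all genes tested. Of all genes, 49.1% lay below 1. Without high-load 1 the subunit median was -0.05. The order of the complexes was not that of their factors. Complex II subunits had a median of -0.40, with 3 of 4 lower at an unadjusted p under 0.05, while complex II factors were at -0.08 with 0 of 4. Sdha, which carries the flavin, was at 732 ± 58.5 and 526 ± 96.7 CPM (SD, n = 3 each; adjusted p 0.175), and Sdhd at 237 ± 14.1 and 194 ± 13.7 CPM (adjusted p 0.171). In complex I the smallest p-values were those of the iron-sulfur subunit Ndufs1, at 226 ± 6.16 and 159 ± 37.3 CPM, and of the flavin subunit Ndufv1, at 329 ± 12.3 and 251 ± 42.3 CPM. In complex III they were those of the core subunit Uqcrc2, at 439 ± 6.85 and 305 ± 59.4 CPM, and of the Rieske protein Uqcrfs1, at 429 ± 35.8 and 312 ± 66.6 CPM. In complex IV, Cox7b was at 350 ± 4.47 and 292 ± 49.8 CPM and Ndufa4 at 339 ± 30.9 and 272 ± 69.2 CPM. In complex V Atp5a1 and Atp5b, the α and β subunits, were at log2 fold changes of -0.41 (SE 0.19) and -0.42 (SE 0.21). High-load 1 was the lowest of the 6 kidneys for all 10 of these subunits. Complex V ran the other way, with -0.38 for its 3 factors and -0.21 for its 15 subunits. Its factor median is the value of Atpaf1 alone. Complexes I, III and IV had factor medians of -0.23, -0.01 and -0.16 and subunit medians of -0.18, -0.18 and -0.17. Without high-load 1 the subunit medians of complexes I to V were -0.05, -0.25, -0.05, -0.008 and -0.06. The factor medians without that kidney were -0.15, -0.04, -0.01, -0.05 and -0.28. These differences between lists were not tested.

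The balance of factor to subunit can be put as the summed factor level per length as a percentage of the summed subunit level. For all 5 complexes it was 4.18%, 4.13% and 4.20% in low-load 1 to 3 and 4.73%, 4.12% and 4.35% in high-load 1 to 3, with overlapping groups. For complex II it was 4.28%, 4.21% and 4.78% against 6.42%, 5.20% and 5.76%, so every high-load kidney was above every low-load one. For complex V it was 0.935%, 0.935% and 0.995% against 0.886%, 0.884% and 0.898%, with every high-load kidney below. Complexes I, III and IV overlapped. High-load 1, which had the lowest levels of both factors and subunits, had the highest percentage in complexes I to IV. These are descriptions of 3 kidneys per group without a test.

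A further 20 assembly factors outside the 44 were tested, such as Oxa1l, Taco1, Cmc1 and Pet117. In 19 of these the fold change was below 1. Their median log2 fold change was -0.15, or -0.04 without high-load 1. Of the 20, 5 were lower without overlap, which is 25.0%, against 15.8% of all genes. None had an unadjusted p under 0.05, where 10.2% of all genes were lower and 14.0% higher. The smallest p belonged to Chchd7, at 37.0 ± 2.54 and 29.2 ± 6.17 CPM (SD, n = 3 each; adjusted p 0.252), and to Lyrm2, a LYR protein, at 21.9 ± 1.69 and 18.3 ± 2.26 CPM (adjusted p 0.264).

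Promoters of 38 members were found in the RefSeq table of GRCm38.p6 windows, 250 bases before to 50 after the start. The ETS core CCGGAAG was present on either strand in 16 of the 38 (42.1%), against 17.9% of 12069 tested genes with such windows. The YY1 motif was in 4 (10.5% against 2.0%), and the NRF1 motif in 5 (13.2% against 9.9%). The site AAGGTCA of estrogen-related receptors was in 1, Uqcc3 (2.6% against 4.4%). The core TGATGNAA of the composite site bound by ATF4 and its partners was in 0 (0.0% against 2.8%). A match is a description of the letters and shows no binding. The median GC content of the windows was 61.0% for the members and 59.7% for the tested genes. Windows were found for 8 of the 12 lower members, and 3 of these, Surf1, Cox15 and Cox16, held the ETS core, as did steady ones such as Timmdc1, Cox10 and Sdhaf2.

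Head-to-head pairs make up a good part of the list, and 15 members have a protein-coding neighbour that starts within 1000 bp on the opposite strand. Member and neighbour are set side by side in the plot of head-to-head pairs, from the same fit.

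**Figure D5:**
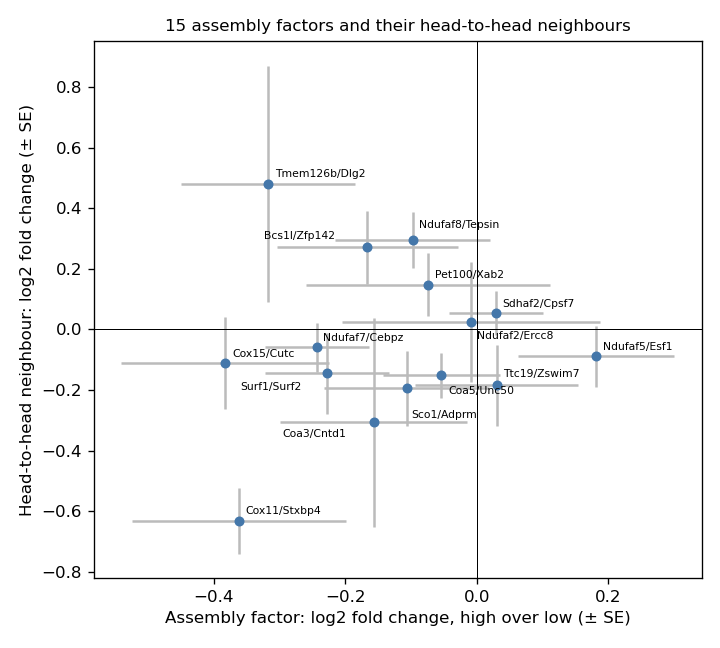
Log2 fold change of high over low load for 15 assembly factors (horizontal axis) and for the neighbour that starts head to head with each (vertical axis), with standard errors. Cox11 and Stxbp4 (-0.36 and -0.63) are the lowest pair, while Tmem126b, Bcs1l and Ndufaf8 are among those that lie left of 0 with neighbours above 0.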

How the data were processed

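The authors deposited raw counts by Ensembl gene for the 6 kidneys in 1 table. Per the labels' protocols, TRIzol RNA was made into Illumina TruSeq libraries and read as 150 bp pairs on a DNBSEQ instrument. Listed in the submitters' processing notes, with no role given, are HISAT2 2.2.1, fastp 0.23.2, featureCounts 2.0.1, SAMtools 1.11, edgeR and the build mm10. Which annotation was counted, whether by strand and how multimapped reads were treated is not stated there, and exons of 16 members overlap another gene's. Groups came from sample titles. Symbols and positions came from GENCODE M21 (32235 of 32285 IDs matched).

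Counts were tested with edgeR 4.0.16 in R 4.3.3: low genes were dropped by filterByExpr (minimum count 10), libraries scaled by TMM, and group fitted by robust quasi-likelihood, with two-sided tests with Benjamini-Hochberg adjustment over 15955 genes at 0.05. Standard errors come from the F statistic. The test was checked on simulated counts with known changes, each larger than that of any member. That check does not show how well changes of the members' size are found. With 3 against 3 kidneys an exact permutation test cannot give a two-sided p below 0.1, so none was used. Depth was 17449270 to 18865997 counts per library. Length scaling used the shortest basic transcript that GENCODE marks as principal. Values in every kidney are given for members with an unadjusted p under 0.05 or groups that do not overlap, and for a few others that mark the contrast within a complex, chosen after their values were seen. In each other list of chain genes the 2 with the smallest p are named. Members, lists and roles were chosen with earlier results of these data known. Alternatives were other scaling, filters, DESeq2 1.42.0, limma-voom (limma 3.58.1), a non-robust fit, a replicate block, load as a number, no mitochondrially encoded genes, an adjusted p of 0.1, and each library left out. Of the fixed list of 22 other factors, Coa1 had no match and 1 failed the filter on low counts.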

Additional observations from a re-analysis of the deposited data

How the results depend on the processing

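With library totals in place of TMM, the median log2 fold change of all genes moved from 0.01 to 0.13, and the members' values moved with it. Their median was -0.041 for all 44, -0.118 for complex I, 0.035 for complex II, 0.114 for complex III and -0.032 for complex IV. At an unadjusted p under 0.05 there were 5 lower members and 1 higher one (Ndufaf5), against 6.31% and 18.2% of all genes. Higher without overlap were 4 members, against 24.2% of all genes. The distance between the members' median and that of all genes was -0.166 with TMM and -0.168 with library totals. DESeq2 called 1 member (Nubpl, log2 fold change -0.533) where edgeR called 0. At an adjusted p of 0.1 edgeR called 0 members. With 1 library left out, edgeR called 0 members in each case, and the members' median was -0.212 to -0.073. In these fits 4 to 14 members were lower at an unadjusted p under 0.05, against 6.15% to 13.2% of all genes. Higher without overlap were 0 to 3 members, against 20.5% to 25.4% of all genes. Coa6 and Nubpl had an unadjusted p under 0.05 in all 16 alternatives run.

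Across those alternatives 27 of the 44 members kept their direction and 17 did not. With library totals the log2 fold change was 0.098 for Ndufaf2, 0.014 for Ndufaf4, 0.016 for Ndufaf8, 0.101 for Sdhaf4, 0.07 for Uqcc3, 0.009 for Sco1, 0.112 for Cox18, 0.075 for Cox19, 0.062 for Coa5, 0.03 for Pet100 and 0.032 for Atpaf2. With load as a number it was 0.016 for Ndufaf2, 0.012 for Sdhaf4 and -0.008 for Cox10. Cox10 was also at -0.008 with DESeq2's size factors, -0.001 without a filter and -0.01 in DESeq2. With 1 library left out the log2 fold change ran from -0.16 to 0.12 for Ndufaf2, -0.093 to 0.11 for Timmdc1, -0.092 to 0.135 for Sdhaf4, -0.088 to 0.017 for Uqcc3, -0.049 to 0.134 for Ttc19, -0.057 to 0.374 for Lyrm7, -0.102 to 0.075 for Cox10, -0.072 to 0.163 for Cox17, -0.054 to 0.071 for Cox18, -0.158 to 0.076 for Cox19, -0.406 to 0.012 for Cox20 and -0.19 to 0.087 for Pet100. The cause of these changes was not tested.

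Samples share replicate numbers across the groups, but same-numbered samples did not deviate together (r = 0.124, -0.182 and 0.0492 for numbers 1 to 3), so the numbers were not taken as pairs. With the replicate block 0 members were called, and the median was -0.158. At an unadjusted p under 0.05, 12 members were lower, where 10.1% of all genes were. Of those members, 10 were among the 12 of the unblocked fit. Not every sample correlated best with its own number.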

Other observations

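Head-to-head neighbours were common among the assembly factors. A protein-coding gene on the opposite strand started within 1000 bp, back to back or overlapping at the 5′ end, for 15 of the 44 members (34.1%) and for 14.5% of 14491 tested protein-coding genes. Ercc8 beside Ndufaf2 acts in DNA repair, Cpsf7 beside Sdhaf2 in mRNA 3′ end processing and Xab2 beside Pet100 in splicing. The neighbours' transcripts did not all lean the way the members did. Stxbp4, beside Cox11, had a log2 fold change of -0.63 (SE 0.11), the lowest of the 15, with groups that did not overlap. Tepsin, beside Ndufaf8, had 0.30 (SE 0.09), with groups that did not overlap, while Ndufaf8 was at -0.10. Zfp142, beside Bcs1l, had 0.27 (SE 0.12), also without overlap, and Bcs1l was at -0.17. Zswim7, beside Ttc19, was lower without overlap at -0.18 (SE 0.13), as was Unc50, beside Coa5, at -0.15 (SE 0.07). Of all genes tested, 15.8% were lower and 17.1% higher without overlap. For the lower members Ndufaf7, Surf1 and Cox15, the neighbours Cebpz, Surf2 and Cutc were at -0.06, -0.14 and -0.11, each with overlapping groups. Dlg2, beside the lower member Tmem126b, was at 0.48 (SE 0.39), also with overlapping groups. These neighbours were chosen by position, and none of the differences between a member and its neighbour was tested.

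The median coefficient of variation of CPM over 3 kidneys was 7.27% for the members and 10.9% for all genes tested at low load, and 12.5% against 14.7% at high load, with no matching of expression level.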
